A study of Mus musculus with 6 samples.

Results

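Mucin-type O-glycans are sugar chains built one residue at a time on the serines and threonines of mucins. The genes described here encode the enzymes of that assembly line, among them A4gnt, and comprise 46 genes listed by name: 10 GalNAc transferases that start the chain, 5 core genes, 11 genes for extension and branching, 11 sialyltransferases, 5 fucosyltransferases, and 4 genes for sulfate and other caps. On the array, 62 probes that were not controls carried one of these names, and 52 of them were kept because the scanner software called them well above background on at least 1 of the 6 arrays. These probes represent 42 of the 46 genes, out of 31689 genes and unnamed transcripts on the array. Fut1, Gcnt4, B3gnt5 and B3gnt7 had no such probe and are not described further. All 42 genes also met the rule for testing, at least 3 arrays well above background, which 17860 genes met. A4gnt met it through the 3 wild-type arrays alone.

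Total RNA came from the lining of the glandular stomach, separated from its muscle, of C57BL/6J mice. The mice were wild type or A4gnt null and 5, 10 or 50 weeks old, with 1 mouse and 1 one-colour Agilent array for each genotype and age, so 6 arrays in all. The labels name the null allele only as A4gnt null; the deleted part of the gene is not given in the sources used here. The 3 wild-type arrays lay on 1 slide and the 3 null arrays on another, so slide and genotype cannot be told apart. Levels are log2 signals relative to the 75th percentile of the array, so 0 is the level that 75% of probes do not exceed. A genotype difference is null minus wild type, and 1 log2 unit is 2-fold. Over the 3 ages the difference was tested with limma, with age as a factor, and its error is the standard error (SE) of that fit with n = 3 arrays per genotype. At a single age 1 mouse was set against 1 mouse, which has no replicate check and carries no p-value. In bulk RNA of a mucosa, fewer cells of a type and less RNA per cell cannot be told apart.

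In the mucus of the stomach these enzymes act in sequence in the Golgi. A GalNAc transferase attaches the first sugar, core enzymes add galactose or a branch, extension enzymes lengthen the chain, and sialic acid, fucose, sulfate or an α1,4-linked N-acetylglucosamine close it. That last cap is the product of A4gnt and marks the gland mucin of mucous neck and pyloric gland cells, while surface mucous cells carry mainly fucosylated chains. Several genes on the list, such as St3gal5, Gal3st1, B4galt6, Fut8 and St6gal1, are better known for their work on glycolipids or N-glycans.

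A4gnt, the α1,4-N-acetylglucosaminyltransferase, was read first. Its probe matches the transcript NM_001077424 from base 1063 on and lies within 1 exon on the plus strand at chr9:99521093-99521152 (mm9). It is shown whole, 5′ to 3′ in lower case, because it reports the targeted gene.
A4gnt probe: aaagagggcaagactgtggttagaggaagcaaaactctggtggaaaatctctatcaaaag
The processed signal of this probe was 165, 325 and 264 in the wild-type mice of 5, 10 and 50 weeks and 2.30, 2.94 and 2.11 in the null mice, where it was not well above background. On the log2 scale these were levels of -0.56, -0.04 and -0.03 against -6.68, -6.67 and -7.45. The groups did not overlap, and the wild-type mouse of 5 weeks stood lowest of its genotype. Set against the lowest signal called above background on the null arrays, A4gnt was at least 23.8-fold lower over the 3 ages, and at least 15.0-fold, 25.0-fold and 35.8-fold lower at 5, 10 and 50 weeks. Its limma adjusted p was 0.0907, the smallest of all 17860 genes tested and above the threshold of 0.05. With other scalings, variance models or filters the limma adjusted p of A4gnt ran from 0.00300 to 0.282, and without 1 of the ages from 0.103 to 0.325. It passed under quantile normalization, spike-in scaling, normexp background correction, a variance trend with intensity, and without the age term. The signal thus separated the labelled genotypes, but whether the probe lies in the deleted part of the gene is not known, and a probe outside it does not check the deletion itself.

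The mucosa also differed between the genotypes in markers of its cell types, given here as sums of linear signals with the 75th percentile of the array set to 1. Markers of gland mucous cells summed to 457 to 1059 in the wild-type mice and 1214 to 1910 in the null mice, and 5 of 5 stood higher in the null at every age. Parietal cell markers summed to 514 to 782 and 231 to 663, with 6 of 6 lower at every age. Chief cell markers summed to 1121 to 1704 and 456 to 1167, with 5 of 6 lower. Of these 5, Cpb1 ran with the pancreatic gene Cpa1, at log2 levels of 4.25, -3.85 and 2.01 against 4.21, -7.20 and 2.29 in the wild type. The sixth, Pga5, stood higher in the null at 5 and 10 weeks. Markers of dividing cells summed to 10.1 to 41.6 and 22.7 to 58.2, with 6 of 6 higher, and fibroblast markers to 14.1 to 22.6 and 22.7 to 29.8, with 5 of 6 higher. Surface mucous markers summed to 2734 to 3306 and 2389 to 3390. Other lists stood apart at single ages. Pancreatic enzyme genes, from an organ beside the stomach, summed to 404, 98.6 and 377 in the wild type and 368, 23.5 and 80.6 in the null at 5, 10 and 50 weeks. Smooth muscle markers summed to 3.74 in the wild type and 17.2 in the null at 5 weeks, and to 34.0 and 7.37 at 50 weeks. At 50 weeks markers of the antrum and its endocrine cells summed to 50.2 and 12.8. Those of the forestomach squamous lining summed to 22.3 and 8.55. Single genes made up most of both gaps, Gast with log2 levels of 5.11 and 0.11 and Lor with 3.34 and -3.46. At every age Pdx1 of the 3 antral markers and Ivl of the 5 tested squamous markers stood higher in the null. Those lower at every age were Sst, Krt5 and Trp63. None of these markers passed limma, and all markers of these 10 lists were well above background on at least 1 array. Their part in the differences described next was not tested.

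**Figure D1:**
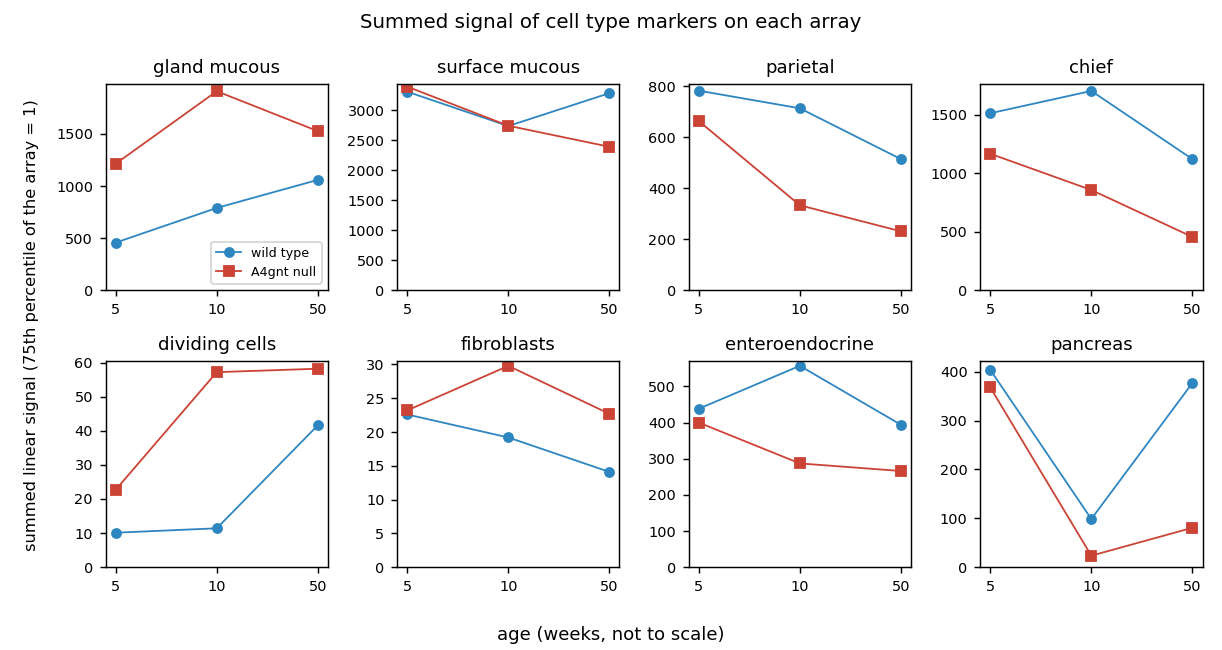
Summed linear signal of markers of 8 cell types (y axis, 75th percentile of the array set to 1, axes starting at 0) by age in weeks (x axis, not to scale), with 1 mouse per point. The gland mucous sum of the null mice stood above that of the wild-type mice at each age, 1214 against 457 at 5 weeks, and the parietal sum stood below it, 231 against 514 at 50 weeks.

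No glycosyltransferase gene passed the test of genotype: 0 of 42 had a limma adjusted p under 0.05, and so did 0% of all 17860 genes tested. At an unadjusted p under 0.05 the null was higher for 10 of the 42 (23.8%), against 12.7% of all genes, and lower for 4 (9.52%), against 11.3%. Those higher were the GalNAc transferases Galnt1, Galnt3, Galnt5, Galnt6 and Galnt10, with B4galt6, Chst4, Fut2, St3gal4 and St6gal1. Those lower were A4gnt, Fut4, St3gal1 and St3gal5. A4gnt was tested through its wild-type arrays alone, so it could count only as lower. St3gal4 and St6gal1 were well above background on 3 null arrays each, but on only 2 and 1 wild-type arrays. Both thus met the rule for testing only with the help of the null arrays, where they stood higher. The median difference of the 41 genes other than A4gnt was 0.10, and that of all genes tested was 0.00.

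The direction was alike at all 3 ages for 20 of the 42 genes. The null stood higher at each age for 13 (31.0%), where 28.4% of all genes did so, and lower for 7 (16.7%), where 23.5% did so. Centring each array on its median moved all genes up by 0.13 and changed that split to 21 higher and 4 lower. All 3 null arrays lay above all 3 wild-type arrays for 6 genes, B4galt6, Galnt1, Galnt3, Galnt6, St3gal4 and St6gal1, which is 14.3% of the 42 against 13.9% of all genes. All 3 lay below for A4gnt and St6galnac2, 4.76% against 10.0%. A4gnt is in both lower counts, but it was tested through its wild-type arrays alone, which left it only that side. The first share is near that of all genes and the second is lower. St3gal4 and St6gal1 are in both higher counts, but they met the rule for testing only with the help of their null arrays. Of the 39 genes well above background on all 6 arrays, 11 stood higher and 6 lower at all ages.

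**Figure D2:**
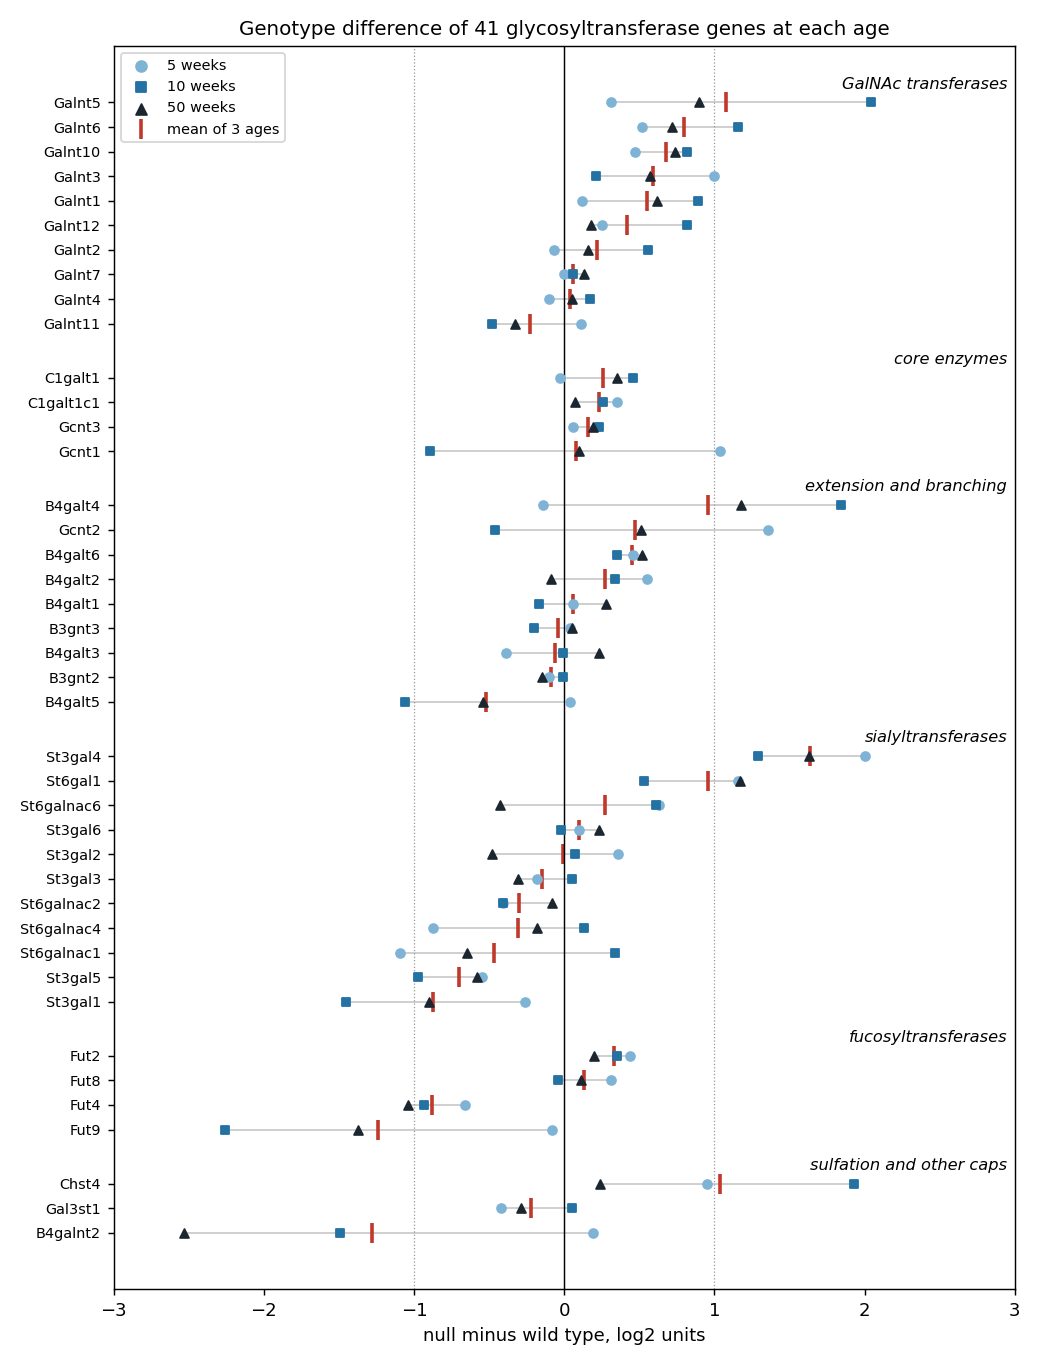
Genotype difference (x axis, null minus wild type, log2 units) of the 41 tested genes other than A4gnt, grouped by role, at 5, 10 and 50 weeks (points, 1 mouse against 1 mouse) and as the mean of the 3 ages (red bar); dotted lines mark 2-fold. GalNAc transferases lie mostly right of 0, up to a mean of 1.08 for Galnt5, and Fut4, Fut9, St3gal1 and St3gal5 lie left of 0 at each age.

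Of 10 GalNAc transferases tested, 0 passed, 6 stood higher in the null at all 3 ages and 0 stood lower at all 3, where 28.4% and 23.5% of all genes did so. Their median difference was 0.48, and it lay between 0.43 and 0.61 under the other scalings. Galnt6 has a pair of probes some way apart in the same gene, and the first 30 bases of each are shown because both probes went the same way. The first lies on the minus strand at chr15:100522237-100522296 (mm9) and is the one tested, and the second at chr15:100523385-100523444.
Galnt6 probe, tested: gaagagaggctgattgggaacctggtggaa
Galnt6 probe, second: gatgtgtatacacagagtgccttcatccta
Galnt6, which starts chains on bare mucin peptides, read 4.22, 4.49 and 4.73 in the wild-type mice of 5, 10 and 50 weeks and 4.74, 5.65 and 5.44 in the null mice. The lowest null array lay just above the highest wild-type array. The difference was 0.80 ± 0.17 (log2, SE), or 1.74-fold, with a limma adjusted p of 0.146. The second probe differed by 0.72, 1.1 and 1.12 at the 3 ages, so the null stood higher on both probes each time.

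Galnt10, a follow-up enzyme that prefers peptides already carrying GalNAc, had the smallest SE relative to its difference among the GalNAc transferases. The first 30 bases of its probe, on the plus strand at chr11:57600941-57601000, are shown because this gene also differed with age.
Galnt10 probe: gaatgacttatcctgttcagttgtgactgt
Levels of Galnt10 were 0.32, 1.05 and 1.38 in the wild type and 0.79, 1.87 and 2.12 in the null. Within each age the null stood higher, while the genotypes overlapped because both stood lowest at 5 weeks. The difference was 0.68 ± 0.13, or 1.60-fold (limma adjusted p = 0.139).

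Galnt3, the closest relative of Galnt6, read 1.62, 2.40 and 1.93 in the wild type and 2.63, 2.61 and 2.50 in the null. The null mice stood close together and above the wild-type mice, of which the 5-week mouse was lowest. The difference was 0.59 ± 0.19 (limma adjusted p = 0.187).

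Galnt5 read -1.02, -1.29 and -0.13 in the wild type and -0.72, 0.74 and 0.78 in the null. The groups overlapped, since the null mouse of 5 weeks stood below the wild-type mouse of 50 weeks, and the 2 older null mice stood above every wild-type mouse. The mean difference of 1.08 ± 0.37 (limma adjusted p = 0.196) was made up of 0.31, 2.04 and 0.90 at the 3 ages.

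Galnt1 read 0.08, -0.45 and -0.04 in the wild type and 0.21, 0.44 and 0.58 in the null, without overlap (difference 0.55 ± 0.19, limma adjusted p = 0.200). Galnt12 differed by 0.42 ± 0.18, with 0.25, 0.82 and 0.18 at the 3 ages. The remaining GalNAc transferases went different ways at different ages, with mean differences of 0.22 for Galnt2, 0.06 for Galnt7, 0.04 for Galnt4 and -0.23 for Galnt11. Galnt4 and Galnt7, both follow-up enzymes, thus stood near equality. The gland mucous sum was also higher in the null at each age, and its part was not tested.

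Core genes stood close between the genotypes, apart from Gcnt1. Of 5, the branching enzyme Gcnt4 was not above background; of the 4 tested, 0 passed, 2 stood higher at all ages and 0 lower, with a median difference of 0.19. C1galt1 makes core 1 by adding galactose, and C1galt1c1 encodes the chaperone it needs. C1galt1c1 read 1.95, 2.11 and 2.34 in the wild type and 2.30, 2.37 and 2.41 in the null (difference 0.23 ± 0.12, limma adjusted p = 0.319). C1galt1 differed by 0.26 ± 0.15, with -0.03, 0.46 and 0.35 at the 3 ages. Gcnt3, the mucin-type core 2 and core 4 branching enzyme, read 4.97, 4.87 and 5.17 in the wild type and 5.02, 5.10 and 5.36 in the null. The genotypes overlapped, with a difference of 0.16 ± 0.11 (limma adjusted p = 0.435).

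Gcnt1, the other core 2 enzyme, reversed from age to age. It read -0.96, 0.57 and -0.81 in the wild type and 0.08, -0.32 and -0.71 in the null, so the wild-type mouse of 10 weeks stood apart from the wild-type mice of 5 and 50 weeks. Its differences were 1.04, -0.89 and 0.10, and the second Gcnt1 probe gave 1.22, -0.49 and 0.28. The mean was 0.08 ± 0.40 (limma adjusted p = 0.912).

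Extension and branching genes split. Of 11, B3gnt5 and B3gnt7 were not above background; of the 9 tested 0 passed, 1 stood higher and 1 lower at all ages, and the median difference was 0.06, or -0.04 under quantile normalization. Gcnt2, which adds the I branch to poly-N-acetyllactosamine, has 2 probes, which the array assigns to different transcripts. Whether either probe also matches other transcripts of the gene was not checked. The first 30 bases of both probes are shown because they reported the gene differently. The probe assigned to NM_133219 (plus strand, chr13:41055331-41055390) was well above background on 6 arrays, and the probe assigned to NM_008105 (chr13:40983592-40983651) on 0.
Gcnt2 probe, tested: cagatgatgtagcaagccttaggatggttc
Gcnt2 probe, second: attggtccaaagatactttcagtcccgatg
On the tested probe Gcnt2 read -2.01, -0.60 and -2.10 in the wild type and -0.65, -1.05 and -1.60 in the null. As with Gcnt1, the wild-type mouse of 10 weeks stood above the wild-type mice of 5 and 50 weeks, and the genotypes overlapped. The differences were 1.36, -0.46 and 0.51, with a mean of 0.47 ± 0.38 (limma adjusted p = 0.485).

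The β1,4-galactosyltransferases B4galt1 to B4galt6 add galactose to N-acetylglucosamine, or in the case of B4galt5 and B4galt6 make lactosylceramide as well. B4galt4 had 2 probes on the plus strand, the tested one at chr16:38768778-38768837 and another at chr16:38768336-38768395; their first 30 bases are shown because both stood far higher in the null at 10 weeks than at 5 weeks.
B4galt4 probe, tested: tacccagcctcttgagaggtttttgccagt
B4galt4 probe, second: tttgaatcatggctgtgaagtgttgtaaca
B4galt4 read -3.60, -3.71 and -3.49 in the wild type and -3.74, -1.88 and -2.30 in the null. The wild-type mice stood close together, and the null mouse of 5 weeks stood with them. The mean difference was 0.96 ± 0.42 (limma adjusted p = 0.253), from -0.14, 1.84 and 1.18 at the 3 ages. On the second probe 2 arrays were well above background.

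B4galt6 read -0.52, -0.19 and -0.49 in the wild type and -0.05, 0.16 and 0.04 in the null, without overlap. Its difference was small and even, 0.45 ± 0.11 (limma adjusted p = 0.163). B4galt5, its relative, went the other way with -0.52 ± 0.25 (limma adjusted p = 0.279) and a difference of -1.06 at 10 weeks. B4galt1, B4galt2 and B4galt3 differed by 0.06, 0.27 and -0.06. B3gnt2 and B3gnt3, which add the N-acetylglucosamine of the repeat and of extended core 1, differed by -0.09 and -0.04; B3gnt2 stood lower at all 3 ages, but its mean turned to 0.05 after median centring.

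Sialyltransferases had no common direction. Of the 11 tested 0 passed, 2 stood higher and 3 lower at all ages, and the median difference was -0.15, or -0.02 after median centring. Both higher members were not well above background in at least 1 wild-type mouse. St3gal4, which caps galactose at the end of N-acetyllactosamine and so prepares sialyl Lewis x, had the smallest limma adjusted p of the 42 genes after A4gnt. The first 30 bases of its probe, on the minus strand at chr9:34854434-34854493, and of the tested St6gal1 probe, on the plus strand at chr16:23360037-23360096, are shown as the pair of sialyltransferases that did not overlap upward.
St3gal4 probe: cccaacaccaagagattatttaacattcta
St6gal1 probe: tgtgggggagtaaattaataagtgtaatat
St3gal4 read -4.75, -3.84 and -3.87 in the wild type, with the 5-week value not well above background, and -2.75, -2.56 and -2.24 in the null. Every null mouse stood well above every wild-type mouse. The fitted difference was 1.64 ± 0.18 (limma adjusted p = 0.110). With the 5-week difference put at its bound, the null exceeded the wild type at least 2.87-fold over the 3 ages. At 5 weeks it was at least 3.14-fold higher, at 10 weeks 2.44-fold and at 50 weeks 3.10-fold.

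St6gal1 adds α2,6-linked sialic acid, chiefly to N-glycans. It read -4.92, -4.56 and -4.73 in the wild type, of which the 10-week value alone was well above background, and -3.76, -4.03 and -3.55 in the null. The fitted difference was 0.96 ± 0.18 (limma adjusted p = 0.139). With 5 and 50 weeks at their bounds, at least 1.56-fold and at least 2.12-fold, the null exceeded the wild type at least 1.68-fold over the 3 ages. A second St6gal1 probe was above background on 0 arrays. With normexp background correction, which draws dim signals together, the differences of St3gal4 and St6gal1 shrank to 0.36 and 0.13.

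St3gal1, St3gal5 and St6galnac2 stood lower in the null at each age. St3gal1, which sialylates core 1, read 1.44, 1.41 and 0.56 in the wild type and 1.17, -0.04 and -0.34 in the null. The null mouse of 5 weeks lay among the wild-type mice and the other null mice below all of them, giving a difference of -0.87 ± 0.26 (limma adjusted p = 0.177). St3gal5, the GM3 synthase, read 2.55, 2.36 and 1.95 in the wild type and 2.0, 1.39 and 1.37 in the null (difference -0.70 ± 0.14, limma adjusted p = 0.145). The null mouse of 5 weeks stood just above the wild-type mouse of 50 weeks, the sole overlap.

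St6galnac2 read 3.43, 3.17 and 3.06 in the wild type and 3.02, 2.76 and 2.98 in the null. The groups did not overlap but lay close, with a difference of -0.30 ± 0.13 (limma adjusted p = 0.257). St6galnac1, which makes sialyl-Tn by adding sialic acid to the first GalNAc, read 4.33, 3.10 and 3.86 in the wild type and 3.24, 3.44 and 3.21 in the null. Its null mice stood together and its wild-type mice apart, and the differences of -1.09, 0.34 and -0.65 averaged -0.47 ± 0.31 (limma adjusted p = 0.409). The other 5, St3gal2, St3gal3, St3gal6, St6galnac4 and St6galnac6, had mean differences from -0.31 for St6galnac4 to 0.27 for St6galnac6 and went different ways at different ages.

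Among fucosyltransferases, the enzymes that make Lewis x stood lower in the null and the secretor enzyme higher. Fut1 was not above background; of the 4 tested 0 passed, 1 stood higher and 2 lower at all ages, with a median difference of -0.37. Fut4 has 2 probes, the tested one on the minus strand at chr9:14553224-14553283 and another at chr9:14555189-14555248. Their first 30 bases are shown because Fut4 was the one listed glycosyltransferase gene besides A4gnt that passed limma in any alternative.
Fut4 probe, tested: atgttaatgagatattggccaggcgtctta
Fut4 probe, second: acatcacctctttctgggatgagcaatggt
Fut4 read 2.92, 2.49 and 2.0 in the wild type and 2.25, 1.56 and 0.96 in the null. At each age the null stood lower, and in both genotypes the older mouse stood below the younger, so the groups overlapped. The difference was -0.88 ± 0.13, a 1.84-fold lower level (limma adjusted p = 0.128), and the second probe gave -1.15, -0.45 and -0.88 at the 3 ages. With normexp background correction the limma adjusted p was 0.0438, within a range of 0.0438 to 0.398 over the alternatives.

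Fut9, the other Lewis x enzyme, read -0.72, -0.39 and -0.97 in the wild type and -0.80, -2.65 and -2.33 in the null. The 5-week mice stood together and the older null mice far below; the difference was -1.24 ± 0.45 (limma adjusted p = 0.209). Fut2, whose α1,2-fucose makes the H antigen of surface mucus, read -0.03, 0.20 and 0.57 in the wild type and 0.42, 0.54 and 0.77 in the null (difference 0.33 ± 0.12, limma adjusted p = 0.204). Fut8, the core fucosyltransferase of N-glycans, differed by 0.13 ± 0.13. The parietal and chief cell sums were also lower in the null, as Fut4 and Fut9 were, and their part was not tested.

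The caps other than sialic acid and fucose had no common direction. Chst4, a sulfotransferase that acts on N-acetylglucosamine, read -0.32, 0.04 and 1.22 in the wild type and 0.63, 1.97 and 1.45 in the null. The null stood higher at each age by 0.95, 1.93 and 0.24, with overlap, and the mean was 1.04 ± 0.36 (limma adjusted p = 0.198). B4galnt2, which adds the GalNAc of the Sda and Cad antigens, read 2.53, 3.33 and 1.89 in the wild type and 2.72, 1.84 and -0.64 in the null. The 5-week mice stood together and the 50-week null mouse far below all others; the mean of -1.28 ± 0.56 (limma adjusted p = 0.256) was made up of 0.19, -1.49 and -2.53. Gal3st1, the sulfatide sulfotransferase, differed by -0.22 ± 0.15.

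**Figure D3:**
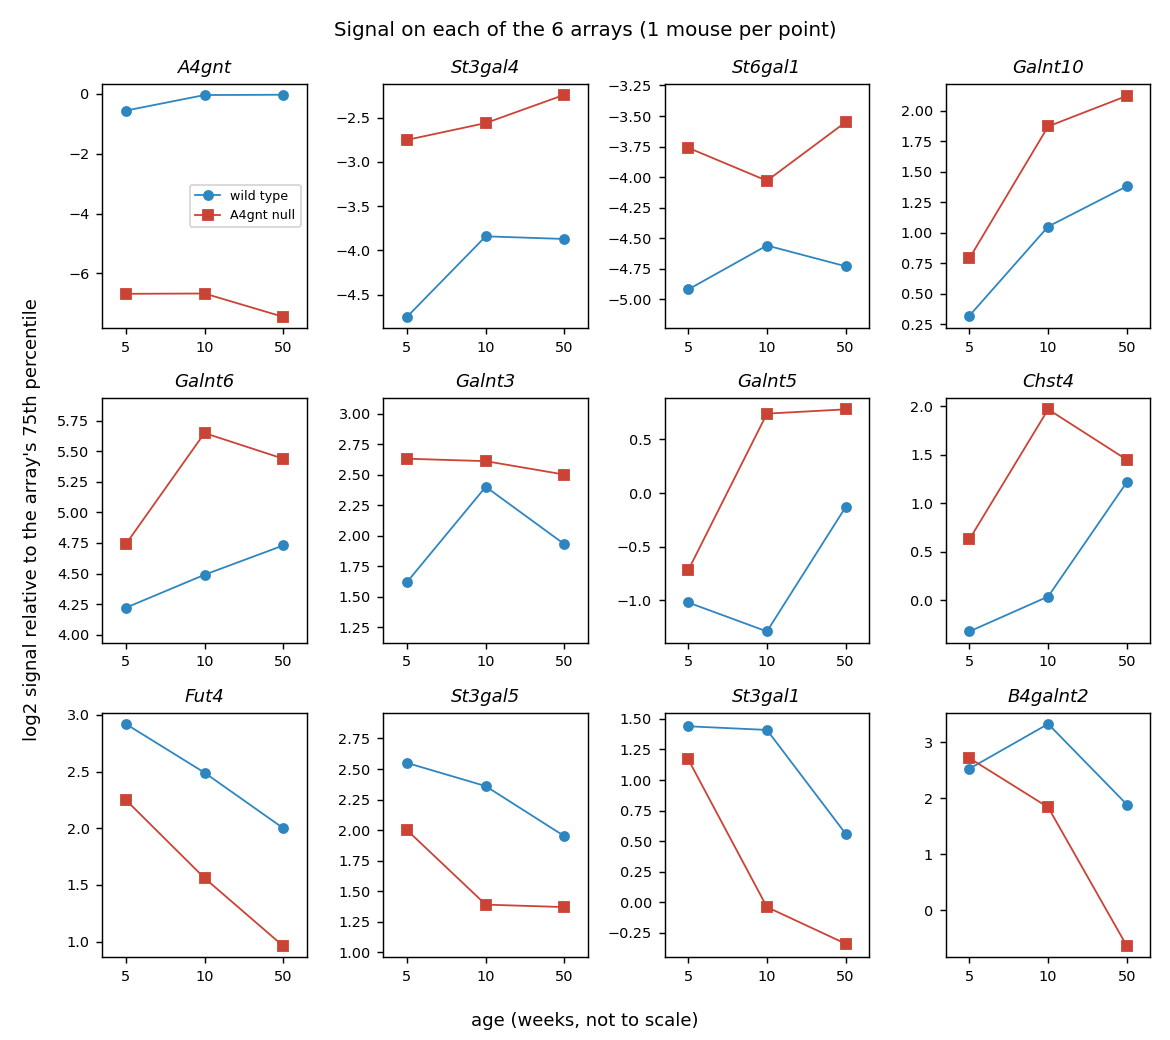
Level of 12 genes on each of the 6 arrays (y axis, log2 signal relative to the 75th percentile of the array, each panel with its own scale; x axis, age in weeks, not to scale), with 1 mouse per point. Wild type and null are far apart for A4gnt (-0.56 against -6.68 at 5 weeks) and do not overlap for St3gal4, St6gal1, Galnt6 and Galnt3; Fut4 is lower in the older mouse of both genotypes, and B4galnt2 reads -0.64 in the null mouse of 50 weeks.

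At single ages, a gene was counted past 2-fold if neither of its arrays lay near background. At 5 weeks 39 of the glycosyltransferase genes could be counted. Galnt3, Gcnt1 and Gcnt2 stood at least 2-fold higher in the null, by 2.0-fold, 2.05-fold and 2.56-fold; that is 7.69%, against 3.74% of all genes. St6galnac1 stood 2.13-fold lower, which is 2.56% against 4.60%. St3gal4 could not be counted at 5 weeks because its wild-type signal was near background, and its bound there was at least 3.14-fold higher.

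At 10 weeks 41 could be counted. B4galt4 (3.57-fold), Chst4 (3.81-fold), Galnt5 (4.10-fold), Galnt6 (2.23-fold) and St3gal4 (2.44-fold) stood higher in the null, 12.2% against 4.64% of all genes. B4galnt2 (2.80-fold), B4galt5 (2.08-fold), Fut9 (4.79-fold) and St3gal1 (2.72-fold) stood lower, 9.76% against 4.91%. At 50 weeks 40 could be counted. B4galt4 (2.27-fold) and St3gal4 (3.10-fold) stood higher, 5.00% against 2.09%, and B4galnt2 (5.79-fold), Fut4 (2.06-fold) and Fut9 (2.58-fold) lower, 7.50% against 4.18%.

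The 10-week pair therefore held 9 of the 18 counted differences past 2-fold. These leave out the bounds of A4gnt at every age, of St3gal4 at 5 weeks and of St6gal1 at 50 weeks. Over the 42 genes the median absolute difference was 0.36, 0.46 and 0.34 at 5, 10 and 50 weeks, and over all genes tested 0.33, 0.31 and 0.25. Each of these values rests on 1 mouse per genotype. The same mice differed in marker sums: null over wild type was 4.60 for smooth muscle at 5 weeks, 5.02 for dividing cells and 0.238 for pancreatic enzymes at 10 weeks, and 0.217 for smooth muscle and 0.214 for pancreatic enzymes at 50 weeks. The pancreatic sums were mostly the signal of Amy2a5. The part of these marker differences in the single-age differences was not tested. With normexp background correction 8 differences in place of 18 passed 2-fold.

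Age was compared over both genotypes in the same fit, with 2 arrays per age. No glycosyltransferase gene passed: 0 of 42 between 5 and 10 weeks (0.0112% of all genes), 0 between 5 and 50 weeks (0.0112%) and 0 between 10 and 50 weeks (0%). At an unadjusted p under 0.05, 6 stood higher at 50 than at 5 weeks (14.3%, against 8.14% of all genes): Fut2, Gal3st1, Galnt4, Galnt6, Galnt10 and St3gal4. Lower at 50 weeks were B4galnt2, Fut4, St3gal1 and St3gal5 (9.52%, against 10.9%).

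Galnt10 and Fut4 had the smallest limma adjusted p of the 42 genes between 5 and 50 weeks. Galnt10 stood higher at 50 than at 5 weeks by 1.06 in the wild type and 1.33 in the null, and over both by 1.19 ± 0.16 (limma adjusted p = 0.218). Most of this lay between 5 and 10 weeks, 0.90 ± 0.16. Fut4 stood lower by -0.91 in the wild type and -1.29 in the null, with -1.10 ± 0.16 over both (limma adjusted p = 0.218), about equally before and after 10 weeks (-0.56 and -0.54).

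St3gal1 and Galnt5 also went one way in both genotypes, with 50 minus 5 weeks of -0.88 and -1.51 for St3gal1 and 0.90 and 1.49 for Galnt5. Gal3st1 read 3.06, 2.82 and 3.64 in the wild type and 2.64, 2.88 and 3.35 in the null, highest at 50 weeks in each (50 against 5 weeks 0.64 ± 0.18, limma adjusted p = 0.229). Chst4 stood higher at 50 weeks by 1.54 in the wild type and 0.82 in the null.

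Direction of the difference between 50 and 5 weeks was the same in both genotypes for 31 of the 42 genes. It was upward in both for 20 (background 32.5%) and downward in both for 11 (background 34.3%). Among the 20 were 7 of the 10 GalNAc transferases: Galnt2, Galnt4, Galnt5, Galnt6, Galnt7, Galnt10 and Galnt12. Among the 11 were Fut4, Fut9 and 6 sialyltransferases. The genotypes parted for 8 genes that stood higher with age in the wild type and lower in the null (background 16.0%), among them A4gnt, which was not well above background in the null, and for 3 that did the opposite (background 17.2%), B4galt1, C1galt1 and Galnt1.

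Whether age acted differently in the genotypes was tested as a trend of the genotype difference with the logarithm of age. No gene passed (0 of 42; 0% of all genes), and the limma adjusted p of every one of the 42 was 1.0. B4galnt2 had the steepest slope, -0.75 ± 0.24 log2 units per doubling of age, and its level was lower at 50 than at 5 weeks by -0.63 in the wild type and -3.36 in the null. B4galt4 had a slope of 0.28 ± 0.33 and Chst4 of -0.31 ± 0.26.

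**Figure D4:**
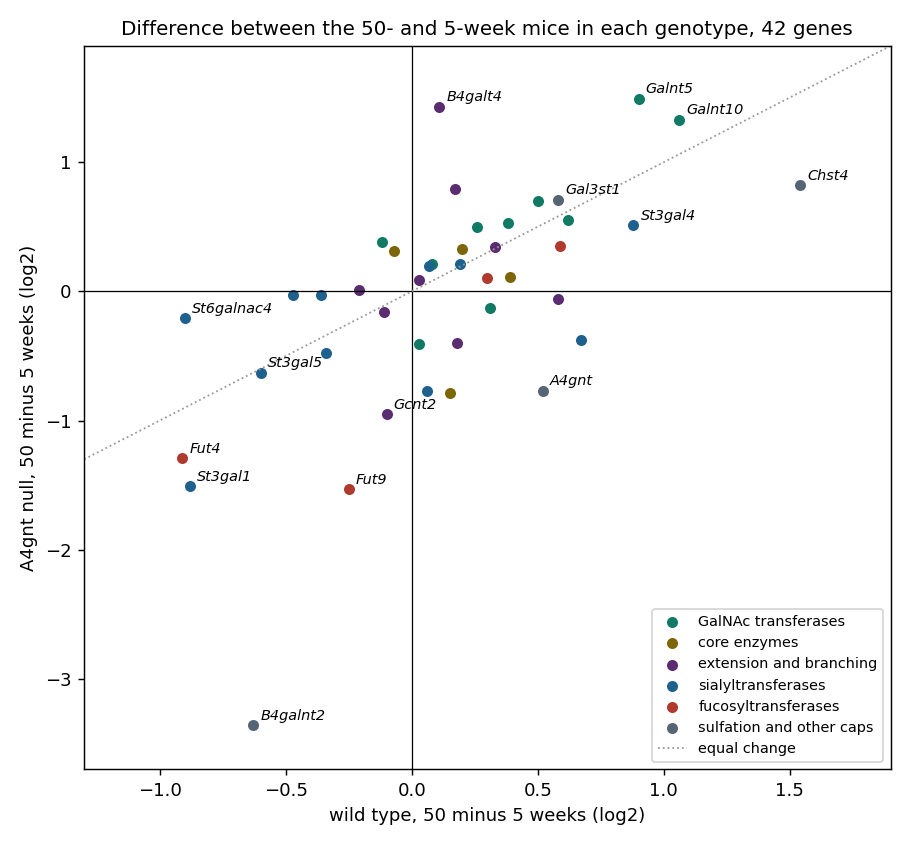
Difference between the 50-week and the 5-week mouse (log2) in the wild type (x axis) and the A4gnt null (y axis) for 42 genes coloured by role; each point rests on 4 mice. Galnt10 (1.06 and 1.33) and Galnt5 (0.90 and 1.49) lie at the upper right, Fut4 (-0.91 and -1.29) at the lower left, and B4galnt2 (-0.63 and -3.36) far below the line of equal change.

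Where a gene had 2 probes, they mostly gave the same answer. Of the 46 genes 16 had 2 probes and 30 had 1. In 8 genes both probes were well above background on at least 3 arrays, and in 8 of 8 the mean genotype difference had the same sign. Over the 3 ages the sign agreed in 23 of 24 comparisons, the exception being B4galt1 at 10 weeks.

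The wider pathway was read from 6 lists of genes that supply, carry, extend or remove the sugars. Other GalNAc transferases had 5 of 8 genes tested, with 0 passed, 3 higher and 1 lower at all ages, and a median of 0.53. Galnt14, one of the 3, was tested only through its null arrays: in the wild type it was not well above background, and the null exceeded it at least 1.61-fold. Without it 2 of 4 stood higher and 1 lower, and the median was 0.39. Galnt15 read -0.77, -0.76 and -3.0 in the wild type and -1.52, -3.05 and -4.75 in the null, the sole tested gene of that list with a negative mean (difference -1.59 ± 0.33, limma adjusted p = 0.145). Galnt18 and Galntl6 differed by 0.60 ± 0.14 and 0.53 ± 0.18.

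Other core, extension and capping enzymes had 14 of 28 genes tested, with 0 passed, 5 higher and 4 lower at all ages and a median of -0.02. St8sia6, which adds α2,8-linked sialic acid, read -0.46, -0.07 and 0.07 in the wild type and 1.14, 1.49 and 1.12 in the null. The groups lay more than 1 log2 unit apart, with a difference of 1.40 ± 0.16 (limma adjusted p = 0.113). Ggta1, the α1,3-galactosyltransferase, was not well above background in the 3 wild-type mice and at least 2.24-fold higher in the null; it too was tested only through the null arrays, and without it 4 genes stood higher and 4 lower. B3gnt9 differed by 0.56 ± 0.11.

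Of 23 enzymes that make nucleotide sugars 22 were tested and 0 passed; 11 stood higher and 3 lower at all ages (28.4% and 23.5% of all genes), with a median of 0.18. Gfpt1, which opens the hexosamine pathway to UDP-N-acetylglucosamine, differed by 0.58 ± 0.11 (limma adjusted p = 0.139), with 0.63, 0.52 and 0.57 at the 3 ages. Gmds, the first enzyme towards GDP-fucose, differed by 0.55 ± 0.11 (limma adjusted p = 0.145), and Papss1, which makes the sulfate donor, by 0.54 ± 0.13. Galt and Galk1, which feed galactose into the pathway, went the other way without overlap. They differed by -0.43 ± 0.11 (limma adjusted p = 0.166) and -0.35 ± 0.12 (limma adjusted p = 0.200). Papss2, which also makes the sulfate donor, likewise stood lower without overlap, by -0.24 ± 0.12 (limma adjusted p = 0.296). Its wild-type mean level was 6.22, against 1.04 for Papss1. Golgi transporters of these donors, listed with the sulfate transporter Slc26a2, had 12 of 12 tested, with 0 passed, 7 higher and 2 lower and a median of 0.27. The CMP-sialic acid transporter Slc35a1 differed by 0.57 ± 0.15 and the GDP-fucose transporter Slc35c1 by 0.40 ± 0.12. Slc26a2, which carries sulfate itself rather than a donor, differed by 0.62 ± 0.18.

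The protein backbones that carry the chains were less uniform. Of 12 mucins and trefoil factors 10 were tested, with 0 passed, 3 higher and 2 lower at all ages and a median of 0.39. Muc6, the gland mucin that bears the product of A4gnt, read 2.07, 3.45 and 2.71 in the wild type and 2.95, 4.45 and 3.67 in the null (difference 0.95 ± 0.11, limma adjusted p = 0.113). At each age the null stood higher by 0.89 to 1.0. Muc4, a membrane mucin, differed by 1.88 ± 0.24 (limma adjusted p = 0.113), and the trefoil factor Tff2 by 0.86 ± 0.24. Muc5ac, the surface mucin, differed by -0.31 ± 0.15.

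Lysosomal enzymes that take these glycans apart had 11 of 11 tested, with 0 passed, 3 higher and 5 lower at all ages and a median of -0.02. Fuca2, a fucosidase, differed by -0.38 ± 0.18.

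**Figure D5:**
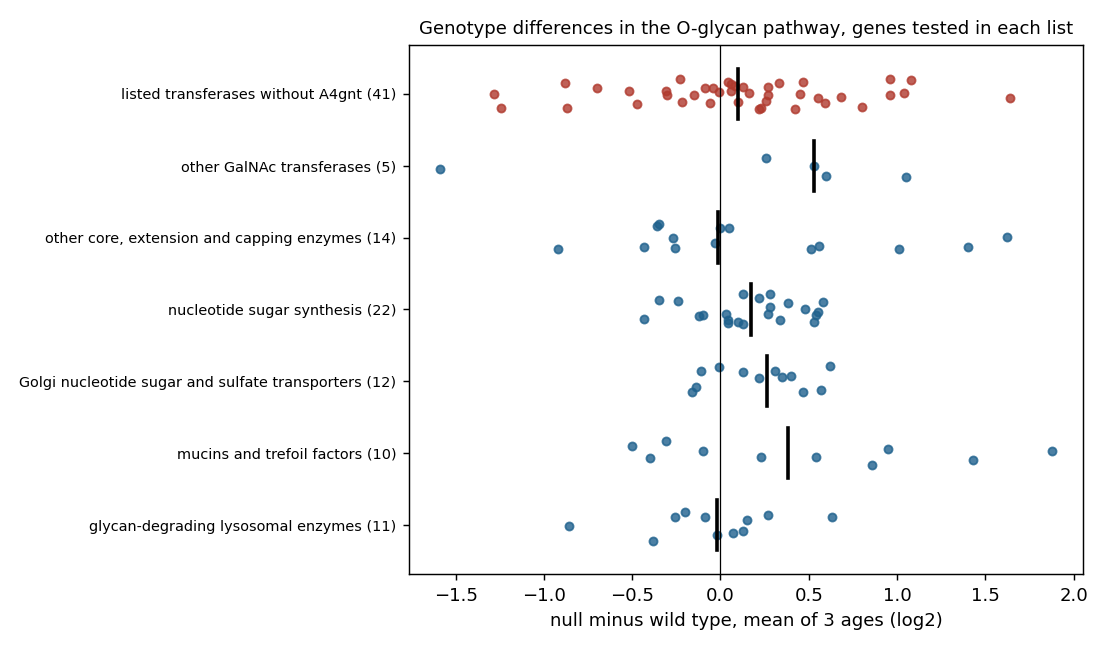
Genotype difference (x axis, null minus wild type, mean of 3 ages, log2 units) of each tested gene in the list of glycosyltransferases without A4gnt (red) and in 6 further lists of the pathway (blue), with vertical scatter only to separate points; black bars are medians and the number of genes is in brackets. The medians run from -0.02 for lysosomal enzymes and for other core, extension and capping enzymes to 0.53 for other GalNAc transferases, which was 0.39 without Galnt14 and 0.15 under normexp; Galnt14 and Ggta1 are drawn at the fitted difference, although their wild-type signals were not well above background.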

How the data were processed

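Spot intensity in the Cy3 channel, background-subtracted, comes from Agilent Feature Extraction (version 10.7.1.1), per the file headers; labelling used the Quick Amp kit, per the labels' protocols. A value table on the log2 scale was deposited too; its values equal the log2 processed signal plus a constant of each array within 0.01 for 100% of 39399 probes. These constants differed from minus the log2 75th percentile by about 0.01, and column medians were -3.56 to -3.89; the table served as an alternative.

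From the 39429 probes that were not controls, outlier spots (98 to 144 per array) were dropped, replicate spots averaged, 30 probes with all spots flagged on some array left out, and the 75th percentile subtracted from log2 signals. Between 54.8% and 59.2% of 43020 spots per array were well above background, and 0 were saturated; the number of arrays limits the precision. Coordinates are those of the files (mm9). The probe with the highest mean signal stood for a gene. Names followed a RefSeq gene table (26055 probes by accession, 3195 by symbol, 930 by synonym; 9249 kept the array's name).

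limma 3.58.1 in R 4.3.3 fitted age and genotype with 2 residual degrees of freedom; p-values were adjusted by Benjamini and Hochberg over all 17860 genes. A bound divides the bright group's mean by the higher of the dim array's lowest signal called above background and the probe's own. The fit was tested on simulated data. Members and lists were chosen with earlier results of these data known. Named were A4gnt, members passing any fit, and up to 12 per direction with the largest moderated t and one sign at all ages. Also named were up to 6 per direction for age and trend, those past 2-fold at an age, and up to 3 per pathway list. The other members, some pathway genes (Muc5ac, Galt, Galk1, Galnt14, Papss2) and single markers were named after their values were seen. Nothing shows whether mice of a genotype were littermates. No age held replicate mice of a genotype. The residual error of the age and genotype fit is thus how far the genotype difference varied between ages. In that error, spread between mice cannot be told apart from a change of the genotype difference with age.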

Additional observations from a re-analysis of the deposited data

How the results depend on the processing

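Of 42 glycosyltransferase genes, of which A4gnt was tested through its wild-type arrays alone, the count passing the genotype test was 0. It became 1 (A4gnt) under quantile normalization, spike-in scaling, a variance trend with intensity and without the age term, and 2 (A4gnt and Fut4) under normexp. Over all genes the count of 0 became 1, 2, 58 and 7 in that order, and 198 under normexp; leaving out 1 age at a time gave 0 for both. Under normexp, whose offset raises dim signals, Fut4 differed by -0.79 and A4gnt by -2.39, a value set by null signals that were not well above background. Normexp also left 8 differences past 2-fold in place of 18, with 1 at 5 weeks and 1 at 50 weeks. Median centring gave 21 genes higher and 4 lower at all ages and turned B3gnt2 to 0.05. Without 1 age, 16 to 19 were higher and 8 to 11 lower at both remaining ages. The median of nucleotide sugar enzymes was 0.14 under quantile normalization and under spike-in scaling, 0.31 under median centring, 0.22 without a filter, 0.15 with the percentile taken over all spots (chosen after seeing the data), and 0.11 to 0.18 without 1 age. The median of lysosomal enzymes was 0.11 under median centring, and that of other GalNAc transferases 0.06 without a filter, 0.15 under normexp and 0.22 when the probes of each gene were averaged. Where no cause is named, the cause was not tested. Age and trend counts stayed at 0 in every alternative run. The slide could not be fitted as a block because each slide holds 1 genotype. Signals near background limit St3gal4 and St6gal1. No pairing by mouse was possible because no mouse was sampled more than once. The shared number is the age, and the age term of the fit already pairs the wild-type and null arrays of each age.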
